A study of Mus musculus with 18 samples.

Results

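Cells hold zinc, copper and iron within narrow limits, and macrophages move these metals in response to bacteria. The 10 genes described here, Mt1, Mt2, Mtf1, Slc39a14, Slc30a1, Slc11a1, Slc40a1, Tfrc, Fth1 and Lcn2, encode metal-binding proteins, metal transporters and a zinc sensor. They were chosen by symbol for their roles, with earlier results of these data known, and all 10 of 10 were found among the 24485 genes measured. Every library gave at least 3 expected counts for each of them, and each had an adjusted p-value in every comparison.

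RNA was sequenced from bone marrow-derived macrophages (BMDMs), which are macrophages grown from bone marrow progenitors, here for 6 days in medium conditioned by L929 cells. All mice were Il10-/- on the C57BL/6J background, so that their cells make no IL-10 of their own, and the methods give males of 12 weeks. No wild-type library was analysed here, and all 6 groups share the deletion. Of 3 libraries each, the groups were unstimulated cells, cells given 500 nM (+)-JQ1, cells given 10 ng/mL IL-10, and the same 3 conditions followed by lipopolysaccharide (LPS, a bacterial cell wall component) at 50 ng/mL. Pretreatment lasted 12 hours and LPS or saline a further 4 hours. (+)-JQ1 is a small molecule that keeps bromodomain and extra-terminal domain (BET) proteins from binding acetylated histones, and IL-10 is a cytokine that restrains macrophage activation. The labels call the unstimulated cells untreated, whereas the methods name a vehicle ahead of LPS. The series text calls the samples biologically matched and the labels give 3 mice, and a replicate number was read as standing for 1 mouse.

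Metallothioneins, of which Mt1 and Mt2 are the broadly expressed members, are small cysteine-rich proteins that bind zinc and copper. The factor MTF-1, encoded by Mtf1, senses free zinc and switches on Mt1, Mt2 and the zinc exporter gene Slc30a1 through short DNA motifs termed metal response elements (MREs). Slc39a14 encodes ZIP14, which brings zinc, manganese and iron into cells. Iron enters bound to transferrin through the receptor encoded by Tfrc, is stored in ferritin, whose heavy chain is encoded by Fth1, and leaves through ferroportin, encoded by Slc40a1. Slc11a1 encodes NRAMP1, a metal transporter of the phagosome membrane, for which C57BL/6 mice carry an allele that impairs the protein. Lcn2 encodes lipocalin 2, a secreted protein that captures bacterial siderophores. Messages for ferritin, ferroportin and the transferrin receptor also carry iron-responsive elements (IREs), hairpins through which iron regulatory proteins act on translation or on mRNA stability.

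Mt1 and Mt2 are neighbours on chromosome 8 of the mm9 build, Mt2 at chr8:96696518-96697467 and Mt1 at chr8:96702989-96704225, both on the plus strand and 5521 bases apart. The Mt1, Mt2 and Slc30a1 promoters are shown because these are the genes known to answer to MTF-1. The windows run from 250 bases before to 30 after the annotated transcription start, read 5′ to 3′ on the plus strand. Capitals mark the MRE core, searched as TGCACNC or TGCGCNC on both strands, so that a match on the minus strand reads as its reverse complement. The sequences are from RefSeq (GRCm38.p6) and were placed by an exact match found once on its mm9 chromosome, Mt1 at chr8:96702739-96703018, Mt2 at chr8:96696268-96696547 and Slc30a1 at chr1:193730410-193730689.
Mt1: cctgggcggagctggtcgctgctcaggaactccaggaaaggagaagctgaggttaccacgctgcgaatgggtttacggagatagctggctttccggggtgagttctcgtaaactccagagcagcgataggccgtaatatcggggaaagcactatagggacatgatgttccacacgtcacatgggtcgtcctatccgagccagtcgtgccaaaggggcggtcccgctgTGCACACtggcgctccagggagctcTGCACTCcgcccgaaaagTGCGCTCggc
Mt2: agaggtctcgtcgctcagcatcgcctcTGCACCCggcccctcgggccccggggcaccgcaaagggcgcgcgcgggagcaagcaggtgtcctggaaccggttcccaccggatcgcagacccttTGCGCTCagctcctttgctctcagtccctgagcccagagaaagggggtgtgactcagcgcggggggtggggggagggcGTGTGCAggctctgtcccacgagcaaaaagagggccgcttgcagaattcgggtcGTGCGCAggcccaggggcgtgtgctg
Slc30a1: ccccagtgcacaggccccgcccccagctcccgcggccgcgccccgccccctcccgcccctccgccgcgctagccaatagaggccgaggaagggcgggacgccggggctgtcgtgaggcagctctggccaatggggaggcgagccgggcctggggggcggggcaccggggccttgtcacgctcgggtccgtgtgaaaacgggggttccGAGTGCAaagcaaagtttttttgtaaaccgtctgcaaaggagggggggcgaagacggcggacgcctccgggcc

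In windows that reach 50 bases past the start, the Mt2 promoter held 4 matches to the core and the Mt1 promoter 3. The Slc30a1 promoter held 2, of which the second starts at base 31 and lies just past the end of the sequence shown. Of 32851 mouse promoters of the same length, 25.7% held at least 1 match, 7.11% at least 2, 1.97% at least 3 and 0.517% at least 4. One of the 2 Tfrc promoters listed also held 2 matches, which overlap each other on opposite strands. No match was found in the listed promoters of Mtf1, Slc11a1, Fth1 and Lcn2, and Slc39a14 and Slc40a1 were not in the table. A match describes the sequence and does not show that a factor binds there. The counts hold for these windows around the annotated starts only, and sequence outside them was not searched for the core.

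The IRE loops of the iron genes are shown because they set Slc40a1, Fth1 and Tfrc apart from the zinc genes. Untranslated regions of the annotated transcripts were searched for a C, 5 bases, the loop CAGTGN and then 5 bases that pair with those before the loop, and 156 of 22611 genes (0.69%) had a match. Of the 10 genes, 3 had one. The Fth1 and Slc40a1 matches lie in the 5′ UTR, at chr19:10057223-10057249 on the plus strand and chr1:45982311-45982337 on the minus strand of mm9. Tfrc had 4 matches in its 3′ UTR, of which the one at chr16:32631306-32631332 on the plus strand is shown. Capitals mark the first 5 bases of the loop.
Fth1: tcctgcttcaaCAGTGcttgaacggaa
Slc40a1: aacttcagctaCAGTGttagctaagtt
Tfrc: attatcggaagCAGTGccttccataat

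The libraries held between 6781952 and 28289498 expected counts over all genes. At the lowest depth, 3 counts correspond to 0.442 CPM. Markers of macrophages were present in every library, with a summed level over 8 genes of 14104 to 29097 TPM (transcript abundance per length, scaled to the same total in each library). Most of that sum came from Lyz2, at a mean of 24665 TPM with (+)-JQ1 and 10214 TPM with LPS. The summed TPM reached at most 2.17 for the erythroid, 9.20 for the lymphocyte and 10.3 for the fibroblast markers. For the neutrophil markers it reached 84.4, as given with Lcn2 below. Values below are DESeq2 normalised read counts unless TPM is named, and a change counted as called at an adjusted p-value under 0.05 over all genes tested. Because only shares of each library were measured, the scale matters for LPS. The median log2 fold change of expressed genes between LPS and unstimulated cells was −0.07 with the DESeq2 size factors and −0.997 when libraries were scaled to equal totals. For (+)-JQ1 under LPS it was −0.10 and 0.28, and for (+)-JQ1 alone 0.00 and −0.17. The share of called genes that were higher with LPS was 49.0% on the first scale and 20.1% on the second. For the 10 genes, LPS changes are therefore given below on both scales where the call differs, or where a change printed here differs in direction. Replicate 3 of LPS and replicate 3 of LPS + IL-10 stood apart from the other libraries of their groups. The 4 replicate pairs that hold one of them had a chi-square per degree of freedom of 26.1 to 30.5 over genes, against 4.14 to 11.2 in the 14 other pairs. Results that change without these libraries, a choice made after seeing the data, are given beside the gene. In these bulk libraries, less RNA per cell and fewer cells of a type cannot be told apart.

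**Figure D1:**
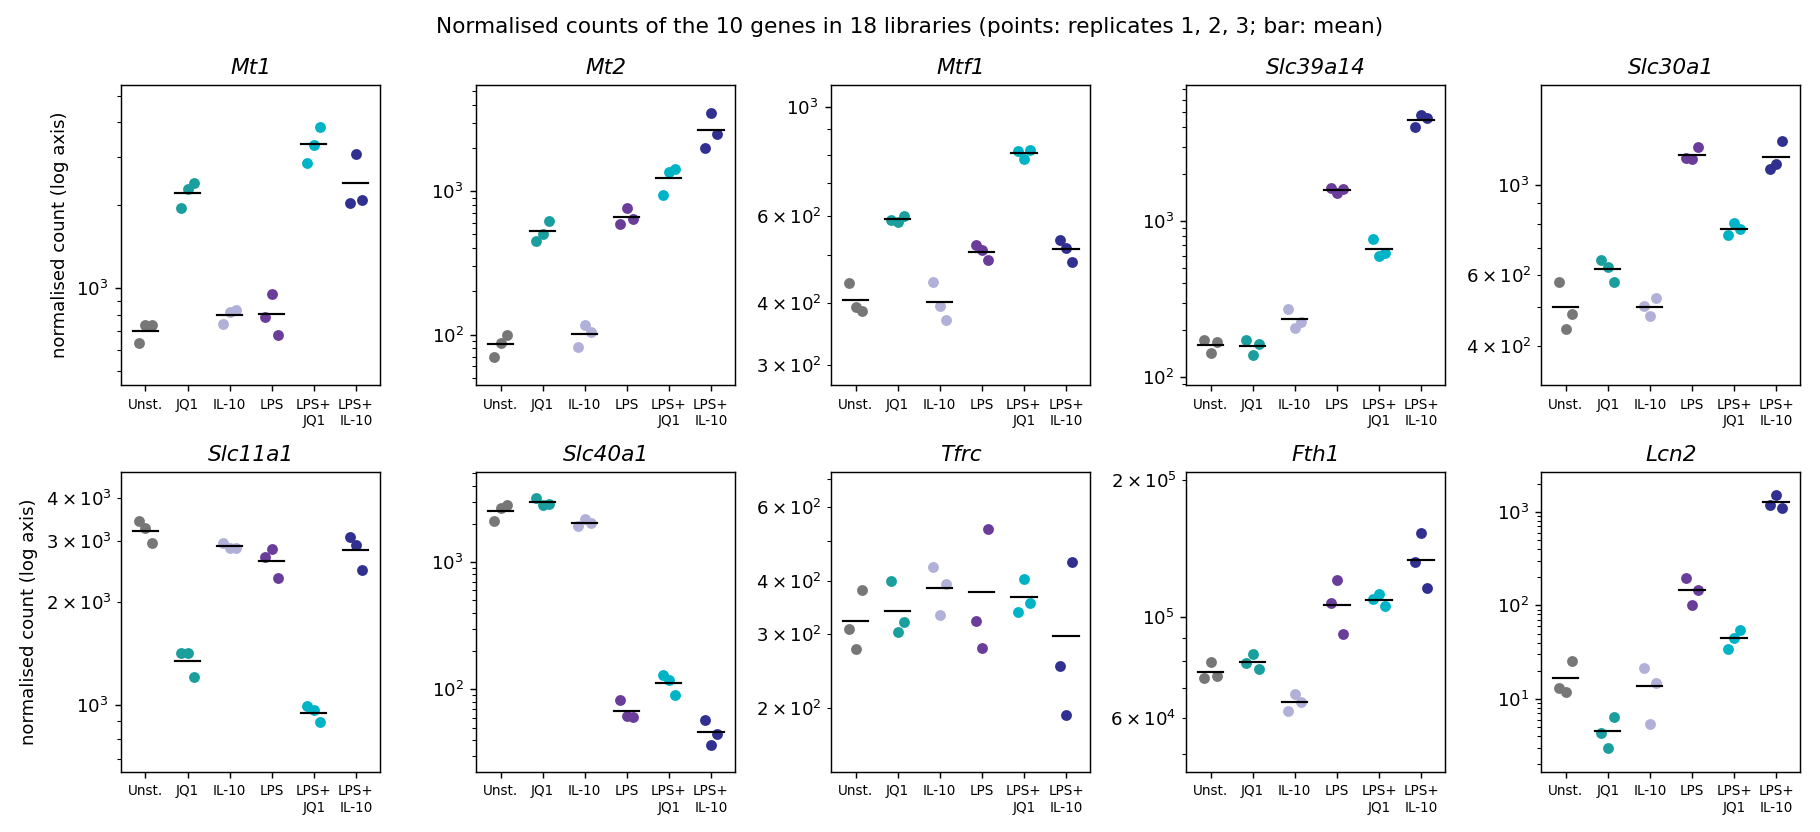
Normalised counts of the 10 genes in the 18 libraries, on a log axis, by group (points for replicates 1, 2 and 3, bar for the mean). Slc40a1 lies at 1916 or more in every library without LPS and at 130 or less in every library with LPS, and Lcn2, Slc39a14 and Mt2 are highest in LPS + IL-10.

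Compared per length, the 10 genes spanned a wide range of levels and changed places with treatment. In unstimulated cells the mean level was 13845 TPM for Fth1, 274 for Mt1, 209 for Slc11a1, 109 for Slc40a1 and 32.3 for Mt2. It was 13.6 TPM for Slc30a1, 9.37 for Tfrc, 7.49 for Mtf1, 4.67 for Slc39a14 and 3.50 for Lcn2, and the ranges of Tfrc and Mtf1 and of Slc39a14 and Lcn2 overlapped. With LPS + IL-10, Lcn2 stood at 165 ± 26.3 TPM and Slc39a14 at 81.9 ± 11.8 TPM, above Slc30a1 at 20.1 ± 3.07 TPM, and Slc40a1 was lowest at 1.23 ± 0.223 TPM.

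The metallothioneins rose with (+)-JQ1 with or without LPS, and with IL-10 under LPS. In unstimulated cells Mt1 counts were 635, 736 and 735, and (+)-JQ1 alone brought them to 1958, 2294 and 2400. With LPS alone they were 789, 955 and 679, a range that overlaps the unstimulated cells. With LPS + (+)-JQ1 they were 2849, 3305 and 3842, and with LPS + IL-10 they were 2039, 3077 and 2100. IL-10 alone gave 741, 822 and 836, all above the unstimulated libraries. The groups with (+)-JQ1 and the LPS + IL-10 group thus did not overlap the other 3 groups.

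Mt1 was 3.16-fold higher with (+)-JQ1 (log2 fold change 1.66 ± 0.16 SE, adjusted p = 3.08e-24). Under LPS it was 4.12-fold higher with (+)-JQ1 (2.04 ± 0.16, adjusted p = 6.48e-37) and 2.97-fold higher with IL-10 (1.57 ± 0.16, adjusted p = 6.05e-21). IL-10 alone did not change it past the threshold (log2 fold change 0.19, 95% interval −0.12 to 0.50, adjusted p = 0.958), and the effect of IL-10 differed between cells with and without LPS by 1.38 on the log2 scale (adjusted p = 9.72e-08). LPS alone gave a log2 fold change of 0.21 (95% interval −0.11 to 0.52, adjusted p = 0.264). That last value depended on the scale. It was −0.72 with equal library totals and −0.59 by limma on log2(TPM + 1), both past the threshold, as the mean level moved from 274 ± 17.1 TPM to 183 ± 23.1 TPM (SD, n = 3). The (+)-JQ1 effect on Mt1 was higher with LPS than without by 0.38 on the log2 scale (95% interval −0.06 to 0.82, adjusted p = 0.168). That difference became 0.94 with equal library totals (adjusted p = 1.24e-04) and 0.87 by limma (adjusted p = 0.00282), both past the threshold.

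Mt2 started from a lower level and moved further. Unstimulated cells gave 70.2, 87.9 and 99.9 counts, (+)-JQ1 gave 447, 505 and 620, and LPS gave 587, 764 and 636. With LPS + (+)-JQ1 the counts were 945, 1366 and 1419, and with LPS + IL-10 they were 2006, 3486 and 2518. With IL-10 alone they were 81.3, 116 and 105 and overlapped the unstimulated cells. Unlike Mt1, Mt2 was therefore separated from the unstimulated cells by LPS alone, and its highest libraries were those of LPS + IL-10 rather than LPS + (+)-JQ1.

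LPS raised Mt2 7.71-fold (log2 fold change 2.95 ± 0.22, adjusted p = 1.39e-39) and (+)-JQ1 alone raised it 6.09-fold (2.61 ± 0.22, adjusted p = 2.17e-30). Under LPS the further rise was 1.88-fold with (+)-JQ1 (adjusted p = 2.50e-05) and 4.03-fold with IL-10 (adjusted p = 7.30e-21). The (+)-JQ1 effect on Mt2 was smaller with LPS than without it, by −1.70 on the log2 scale (adjusted p = 1.39e-07). The IL-10 effect was larger with LPS, by 1.79 (adjusted p = 4.62e-07), and IL-10 alone gave 0.22 (95% interval −0.23 to 0.66, adjusted p = 1). Between the treatments under LPS the 2 genes went in opposite directions. Mt1 was 1.39-fold higher with (+)-JQ1 than with IL-10 (adjusted p = 0.00555), while Mt2 was 2.15-fold lower (adjusted p = 1.74e-07). Without the replicate 3 libraries the Mt1 difference was no longer called (adjusted p = 0.175).

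Within a library, the ratio of Mt2 to Mt1 in TPM does not depend on the scale. It was 0.106, 0.115 and 0.131 in unstimulated cells and 0.105, 0.136 and 0.121 with IL-10, which overlap. It rose to 0.219, 0.211 and 0.249 with (+)-JQ1 and to 0.715, 0.770 and 0.901 with LPS. With LPS + (+)-JQ1 it was 0.319, 0.398 and 0.356, between the (+)-JQ1 and the LPS libraries, and with LPS + IL-10 it was 0.945, 1.09 and 1.15, above every other library. An exact two-sided permutation test of 3 against 3 libraries cannot go below p = 0.1, and the ratio reached that value for LPS, (+)-JQ1 and both treatments under LPS, against p = 0.8 for IL-10 alone. Over the 20 exact permutation tests of ratios made for 4 gene pairs, the Benjamini-Hochberg adjusted value at p = 0.1 was 0.111. The coding sequences of Mt1 and Mt2 share 79.6% of 186 bases but no stretch of 50 bases, and the expected counts of both were whole numbers in every library.

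**Figure D2:**
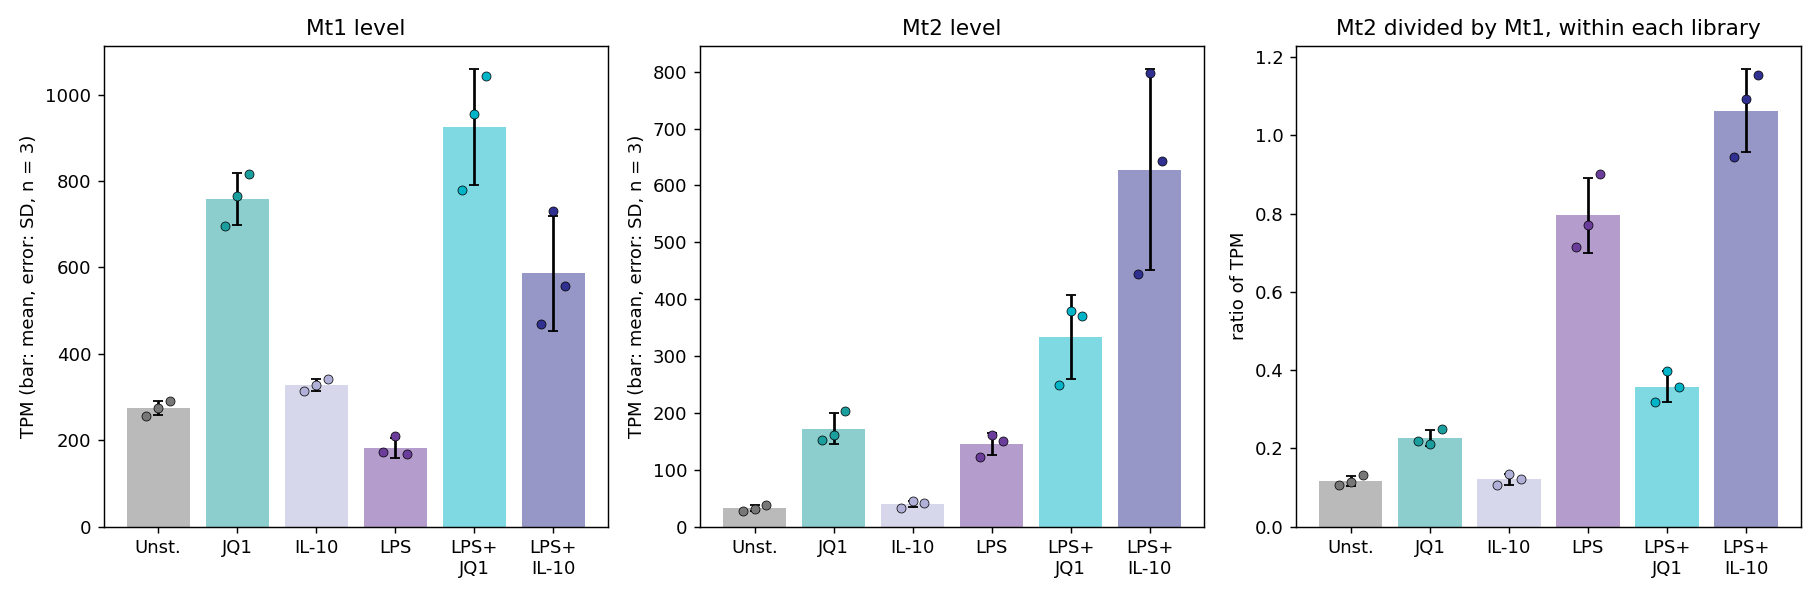
Levels of Mt1 and Mt2 in TPM and the ratio of Mt2 to Mt1 within each library (bar for the mean, error bar for the SD, n = 3, points for replicates). Mt1 peaks in LPS + (+)-JQ1 at a mean of 925 TPM and Mt2 in LPS + IL-10 at 628 TPM, and the mean ratio goes from 0.117 in unstimulated cells to 1.06 in LPS + IL-10.

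Mtf1, the gene of the zinc sensor itself, moved little but in the same direction with (+)-JQ1 in both settings. Its counts were 439, 394 and 387 in unstimulated cells and 590, 584 and 601 with (+)-JQ1. With LPS they were 526, 513 and 489, and with LPS + (+)-JQ1 they were 813, 784 and 819. The (+)-JQ1 libraries lay above their controls without overlap. The rise was 1.45-fold without LPS (adjusted p = 2.69e-09) and 1.58-fold with LPS (adjusted p = 3.65e-14). IL-10 left Mtf1 at 443, 396 and 370 without LPS and at 539, 518 and 486 with LPS, neither past the threshold. The 1.25-fold rise with LPS (adjusted p = 5.98e-04) turned into a fall of −0.61 on the log2 scale with equal library totals and of −0.39 in log2(TPM + 1), and was not called without replicate 2 (adjusted p = 0.0545). Mtf1 shares reads with other genes in these counts, since its expected counts were not whole in at least 1 library.

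Among the zinc transporters, the importer gene Slc39a14 had the widest range. Unstimulated cells gave 172, 142 and 169 counts, (+)-JQ1 gave 172, 138 and 162, and IL-10 gave 274, 207 and 226. LPS brought it to 1637, 1520 and 1615, LPS + (+)-JQ1 to 762, 598 and 624, and LPS + IL-10 to 4033, 4805 and 4580. The 3 LPS groups did not overlap one another or any group without LPS, in the order LPS + IL-10, LPS, LPS + (+)-JQ1. Slc39a14 rose 9.74-fold with LPS (log2 fold change 3.28 ± 0.13, adjusted p = 1.29e-142). Under LPS, (+)-JQ1 lowered it 2.40-fold (adjusted p = 2.04e-26), whereas without LPS it gave a log2 fold change of −0.05 (95% interval −0.33 to 0.23, adjusted p = 0.812), and the difference between these effects was −1.22 (adjusted p = 4.09e-10).

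IL-10 raised Slc39a14 2.81-fold under LPS (adjusted p = 1.33e-37) and 1.46-fold without it (adjusted p = 0.0038). The effect was larger with LPS by 0.95 on the log2 scale (adjusted p = 3.92e-06). With all 18 libraries, Slc39a14 was the only one of the 10 genes called for IL-10 alone, where 2.75% of all genes tested were called, and that call was lost without replicate 1 (adjusted p = 0.145) and by limma on log2(TPM + 1) (adjusted p = 0.0859).

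The exporter gene Slc30a1 rose with LPS and, like Mtf1, was not moved past the threshold by IL-10. Unstimulated cells gave 575, 440 and 481 counts, (+)-JQ1 gave 653, 628 and 576, and IL-10 gave 502, 475 and 525. LPS took the counts to 1166, 1156 and 1239, LPS + (+)-JQ1 to 750, 805 and 778, and LPS + IL-10 to 1095, 1128 and 1285. The LPS and LPS + IL-10 libraries overlapped, and both lay above those of LPS + (+)-JQ1. Like Mtf1, Slc30a1 shares reads with other genes, since its expected counts were not whole in at least 1 library. LPS raised Slc30a1 2.36-fold (adjusted p = 5.38e-38), and the log2 value of 1.24 became 0.31 on equal library totals (adjusted p = 0.00397) and 0.45 by limma (adjusted p = 0.00380). (+)-JQ1 lowered it 1.53-fold under LPS (adjusted p = 2.60e-10) and raised it 1.23-fold without LPS (adjusted p = 0.00551), a difference of −0.91 on the log2 scale (adjusted p = 1.58e-10). The rise without LPS was lost with equal library totals (adjusted p = 0.366), by limma (adjusted p = 0.565) and without replicate 2 (adjusted p = 0.205). By limma the fall under LPS (adjusted p = 0.0644) and the difference (adjusted p = 0.0824) also missed the threshold. In the DESeq2 fit, Slc30a1 moved opposite to the metallothioneins when (+)-JQ1 was added to LPS. Mt1, Mt2 and Slc30a1 all hold the MRE core in the promoters shown above, and the part of MTF-1 in these changes was not tested.

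Iron export showed the largest change of the 10 genes with LPS alone. Unstimulated cells gave 2101, 2686 and 2813 counts of Slc40a1, (+)-JQ1 gave 3170, 2804 and 2886, and IL-10 gave 1916, 2172 and 2045. LPS lowered the counts to 82.0, 62.0 and 60.2, LPS + (+)-JQ1 to 130, 118 and 89.9, and LPS + IL-10 to 56.8, 36.5 and 44.2. Every library with LPS lay far below every library without it. Ferroportin mRNA was 37.6-fold lower with LPS (log2 fold change −5.23 ± 0.16, adjusted p = 4.01e-222), and the mean level went from 109 ± 16.5 TPM to 1.70 ± 0.199 TPM.

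Within the low LPS range, Slc40a1 was 1.68-fold higher with (+)-JQ1 than without (adjusted p = 1.18e-04), at 113 against 68.1 counts. With IL-10 it was at 45.8 counts, without overlap with the LPS libraries, and the log2 fold change of −0.55 did not pass (95% interval −0.97 to −0.14, adjusted p = 0.0519). Without LPS neither (+)-JQ1 (0.22, adjusted p = 0.122) nor IL-10 (−0.31, adjusted p = 0.204) passed. The latter value did pass when only these groups were fitted (adjusted p = 0.0401) and without replicate 1 (adjusted p = 0.0496). The (+)-JQ1 effect was larger with LPS than without by 0.52 on the log2 scale (adjusted p = 0.0422), but with the replicate number as a block the adjusted p was 0.0806, and with lane as a covariate it was 0.0709. Without replicate 2 it was 0.396, without replicate 3 it was 0.134, and without only replicate 3 of LPS and of LPS + IL-10 it was 0.0967.

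Fth1 and Tfrc, whose messages the iron regulatory proteins also bind, gave changes whose call or direction often rested on the scale. Fth1 was the most abundant of the 10 genes at 13845 ± 131 TPM in unstimulated cells. Its counts were 73510, 79646 and 74408 there, and (+)-JQ1 gave 79241, 82737 and 76904 and IL-10 62231, 67700 and 65090. LPS took them to 107115, 120248 and 91778, LPS + (+)-JQ1 to 109368, 112289 and 105680, and LPS + IL-10 to 131660, 153143 and 115703. The LPS and LPS + (+)-JQ1 libraries overlapped. The rise with LPS was 1.40-fold in normalised counts (adjusted p = 2.00e-06), but the log2 fold change was −0.44 with equal library totals and −0.30 in log2(TPM + 1), so the direction of this change rests on the scale. In cells given IL-10 the rise with LPS was 2.05-fold (adjusted p = 5.26e-25), and its log2 value of 1.04 became 0.21 on equal library totals (adjusted p = 0.0426) and 0.30 by limma (adjusted p = 0.0540). IL-10 raised Fth1 1.25-fold under LPS (adjusted p = 0.00809). That call was lost without replicate 1 (adjusted p = 0.140) and when only these groups were fitted (adjusted p = 0.135). IL-10 alone gave −0.22, which was not called with all libraries and was called without replicate 3 of LPS and of LPS + IL-10 (adjusted p = 0.0224). The IL-10 effect was higher with LPS by 0.55 on the log2 scale (adjusted p = 0.00230), which was also lost without replicate 1 (adjusted p = 0.124) and by limma (adjusted p = 0.0952). (+)-JQ1 under LPS gave 0.04 (95% interval −0.16 to 0.23, adjusted p = 0.780), and on equal library totals 0.41 (adjusted p = 5.58e-05) and by limma 0.34 (adjusted p = 0.0365), while without replicate 3 of LPS and of LPS + IL-10 it was −0.0577 (adjusted p = 0.527). Processed copies of ferritin genes lie elsewhere in the genome, so that reads of Fth1 may be assigned with some error. The expected counts of Fth1 were whole in every library.

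Beside the ferritin heavy chain, the light chain gene Ftl1 fell with LPS and rose with (+)-JQ1. Its level was 29514 ± 463 TPM in unstimulated cells, 74564 ± 3114 TPM with (+)-JQ1, 10470 ± 833 TPM with LPS and 42008 ± 1354 TPM with LPS + (+)-JQ1. The ratio of Fth1 to Ftl1 within a library was 0.472, 0.466 and 0.470 in unstimulated cells. (+)-JQ1 gave 0.182, 0.169 and 0.160, LPS gave 1.05, 1.10 and 1.08, and their combination gave 0.340, 0.353 and 0.327. With LPS + IL-10 it was 1.37, 1.55 and 1.47, so that heavy chain transcripts outnumbered light chain transcripts per length in every library of LPS and LPS + IL-10, and the reverse held in unstimulated cells and both (+)-JQ1 groups. The libraries of these 5 groups did not overlap, and the exact permutation p was 0.1 for each comparison with its control.

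With all 18 libraries, Tfrc showed no called change in any comparison. Unstimulated cells gave 308, 276 and 382 counts, (+)-JQ1 gave 400, 303 and 320, and IL-10 gave 432, 332 and 395. LPS gave 322, 277 and 533, LPS + (+)-JQ1 gave 338, 405 and 356, and LPS + IL-10 gave 252, 193 and 445. All 6 groups overlapped, and the replicate 3 libraries stood high in LPS and in LPS + IL-10. The log2 fold change was 0.22 with LPS (95% interval −0.28 to 0.73, adjusted p = 0.464), −0.34 for IL-10 under LPS (adjusted p = 0.458) and −0.37 for LPS + IL-10 against IL-10 (adjusted p = 0.190). Without replicate 3 the last of these was −0.78 (adjusted p = 2.96e-04). Without only replicate 3 of LPS and of LPS + IL-10 it was −0.79 (adjusted p = 1.67e-05), and the LPS value was −0.121 (adjusted p = 0.553). With equal library totals it was −1.20 (adjusted p = 1.00e-05), and the LPS value was −0.70 (adjusted p = 0.0113). In log2(TPM + 1) the LPS value was −0.52 (adjusted p = 0.116) and the other −1.03 (adjusted p = 0.00385). Between LPS + (+)-JQ1 and LPS + IL-10 the log2 fold change was 0.30 (adjusted p = 0.344). Without replicate 3 of LPS and of LPS + IL-10, that difference was called, with Tfrc higher in LPS + (+)-JQ1.

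The phagosomal transporter gene Slc11a1 was lowered by (+)-JQ1 whether or not LPS was present. Its counts were 3433, 3266 and 2958 in unstimulated cells and 1417, 1419 and 1207 with (+)-JQ1. They were 2700, 2837 and 2350 with LPS and 994, 967 and 891 with LPS + (+)-JQ1. Both (+)-JQ1 groups lay below all libraries without it. The fall was 2.39-fold without LPS (adjusted p = 5.35e-36) and 2.77-fold with LPS (adjusted p = 2.19e-47), and the 2 falls differed by −0.21 on the log2 scale (95% interval −0.49 to 0.06, adjusted p = 0.230). That difference became 0.34 with equal library totals (adjusted p = 0.0222) and 0.31 by limma (adjusted p = 0.0242), both past the threshold in the opposite direction. Without replicate 3 of LPS and of LPS + IL-10 it was −0.28 and also passed (adjusted p = 0.0350). LPS alone lowered Slc11a1 1.22-fold (adjusted p = 0.00476), which was lost without replicate 1 (adjusted p = 0.0975). Its log2 value was −0.29 in this fit, −1.22 on equal library totals (adjusted p = 3.21e-39) and −1.06 by limma (adjusted p = 3.04e-09).

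IL-10 left Slc11a1 at 2962, 2871 and 2863 without LPS and at 3085, 2929 and 2471 with it, and no IL-10 contrast passed in this fit. In cells given IL-10, LPS gave Slc11a1 a log2 fold change of −0.04 (adjusted p = 0.750). On equal library totals and by limma that change was a called fall. Under LPS the log2 fold change of Slc11a1 with IL-10 was 0.10 (95% interval −0.09 to 0.29, adjusted p = 0.578). The difference between the IL-10 effects was 0.25 (adjusted p = 0.347), and with the replicate block its adjusted p was 0.0487. Within a library the ratio of Slc40a1 to Slc11a1 in TPM was 0.405 to 0.631 in unstimulated cells, 1.31 to 1.59 with (+)-JQ1 and 0.0146 to 0.0201 with LPS. Relative to the phagosomal transporter, ferroportin mRNA was thus higher with (+)-JQ1 and lower with LPS.

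Lcn2 was low without LPS and was the gene that IL-10 raised most under LPS. Unstimulated cells gave 13.1, 11.8 and 25.5 counts, (+)-JQ1 gave 4.32, 2.96 and 6.41, and IL-10 gave 21.2, 5.38 and 14.95. LPS brought it to 197, 100 and 146, LPS + (+)-JQ1 to 34.2, 45.3 and 54.2, and LPS + IL-10 to 1191, 1511 and 1106. The 3 LPS groups did not overlap, in the same order as for Slc39a14. In expected counts the lowest value, in a (+)-JQ1 library, was 3, which is at the floor of these data.

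LPS raised Lcn2 8.45-fold (log2 fold change 3.08 ± 0.42, adjusted p = 1.06e-12). Under LPS it was 8.62-fold higher with IL-10 (adjusted p = 9.42e-15) and 3.31-fold lower with (+)-JQ1 (adjusted p = 3.77e-05), so that the 2 treatments under LPS lay 28.5-fold apart, with IL-10 the higher (adjusted p = 4.32e-34). The effect of IL-10 differed between cells with and without LPS by 3.39 on the log2 scale (adjusted p = 6.96e-07). Without LPS, Lcn2 was 3.80-fold lower with (+)-JQ1 (adjusted p = 0.00182), and not called without replicate 3 (adjusted p = 0.0762). Lcn2 is also abundant in neutrophils. The summed TPM of 8 neutrophil markers was 23.2 to 84.4 in unstimulated cells and 7.46 to 16.9 with (+)-JQ1, and 35.5 to 50.9 with LPS and 13.0 to 29.6 with LPS + (+)-JQ1. With LPS + IL-10 the sum was 30.7 to 69.0 and overlapped the LPS libraries. The defining marker Ly6g was at 0 in every library, and most of the sum came from S100a8 and S100a9. Of the others, Ngp had counts in 18 libraries, Camp in 12, Prtn3 in 5, Mpo in 2 and Elane in 1. From LPS to LPS + (+)-JQ1 the mean went from 18.3 to 6.63 TPM for S100a8 and from 19.7 to 9.66 TPM for S100a9. For Ngp it went from 3.23 to 3.48 TPM. The part of such cells in the (+)-JQ1 result was not tested.

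**Figure D3:**
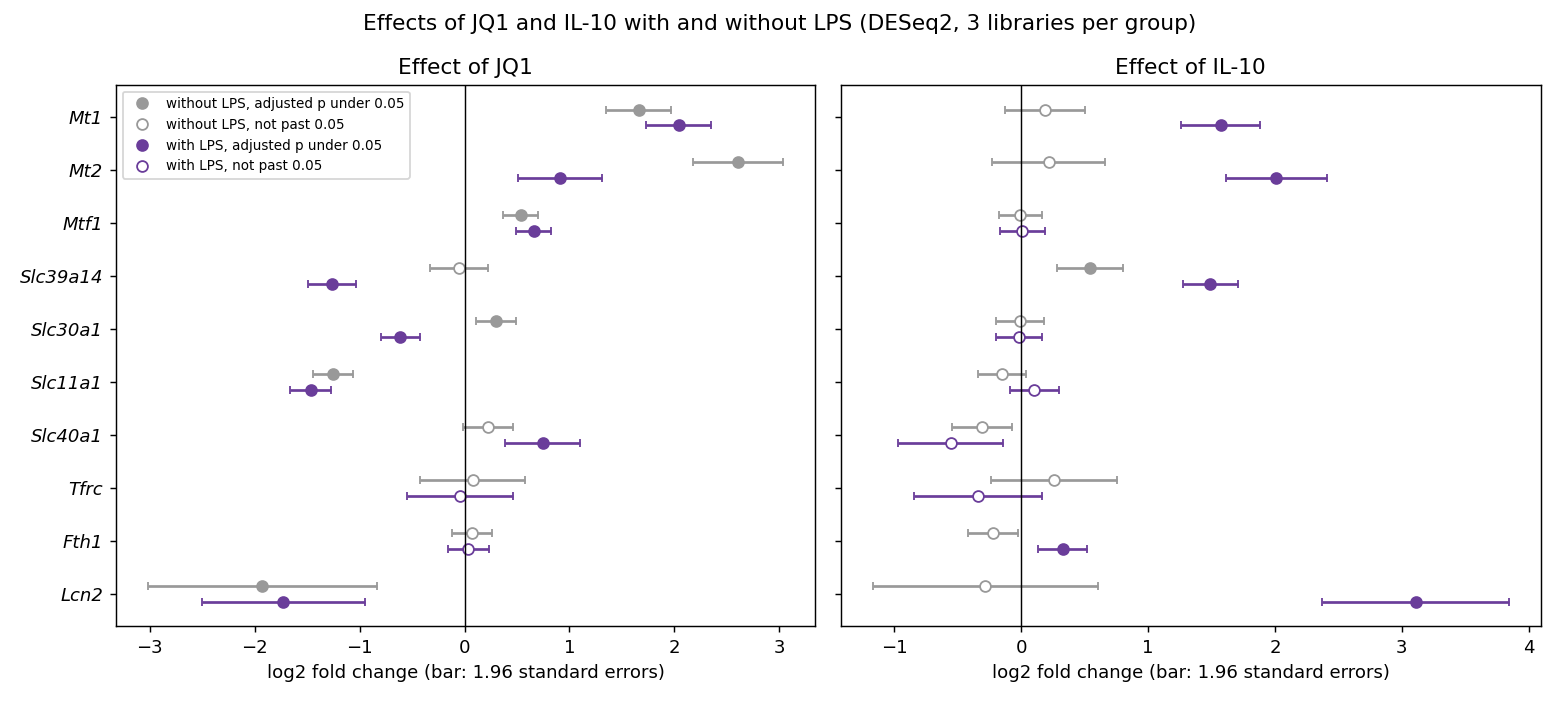
Log2 fold changes of the 10 genes with (+)-JQ1 (left) and IL-10 (right), without LPS in grey and with LPS in purple, with 95% intervals (DESeq2, 3 libraries per group). Filled points passed an adjusted p of 0.05. In this fit the effect of (+)-JQ1 differed with LPS for Mt2, Slc39a14, Slc30a1 and, without the replicate block, Slc40a1, and IL-10 moved Slc39a14 alone without LPS. For Mt1 the difference of (+)-JQ1 effects was called only on equal library totals and by limma.

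Counted over the 10 genes, LPS against unstimulated cells called 8, with 6 higher and 2 lower, where 64.7% of all genes tested were called. On equal library totals the split was 4 higher and 6 lower. (+)-JQ1 alone called 6 (4 higher, 2 lower) against a background of 46.0%, and IL-10 alone called 1 against 2.75%. Under LPS, (+)-JQ1 called 8 (4 higher, 4 lower) against 57.6%. IL-10 under LPS called 5, all higher, against 16.9% of genes, and these were Mt1, Mt2, Slc39a14, Fth1 and Lcn2. The counts for LPS and (+)-JQ1 were near their backgrounds, and that for IL-10 under LPS was above it, without a test of the list. Because the genes were chosen with earlier results of these data known, such counts, here and below, describe the list and cannot show an excess.

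The response to LPS called 9 of the 10 genes in cells given (+)-JQ1 (7 higher, 2 lower), against 57.5% of all genes, and 8 in cells given IL-10 (7 higher, 1 lower), against 67.3%. On equal library totals these counts were 5 (3 higher, 2 lower) and 10 (6 higher, 4 lower). Between LPS + (+)-JQ1 and LPS + IL-10, 9 genes differed, 3 higher and 6 lower with (+)-JQ1, against 55.6%. The difference between the (+)-JQ1 effects with and without LPS was called for 4 genes, against 40.6% of all genes, and taken as the effect with LPS minus the effect without, it was positive for 1 and negative for 3. On equal library totals it was called for 8, positive for 5 and negative for 3. The corresponding difference for IL-10 was called for 5, all positive, against 7.30%. Several of these contrasts share control libraries and are not independent of one another.

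In LPS-treated cells given IL-10 or (+)-JQ1, the response of each gene to LPS can be set side by side. In cells given IL-10, LPS raised Mt2 26.7-fold, Slc39a14 18.8-fold, Lcn2 88.6-fold and Mt1 3.01-fold, and lowered Slc40a1 44.5-fold. In cells given (+)-JQ1 the same genes rose 2.37-fold, 4.19-fold, 9.70-fold and 1.503-fold, and Slc40a1 fell 26.1-fold. All 10 of these changes had an adjusted p under 0.05 by DESeq2, the largest at 4.05e-04 for Mt1 with (+)-JQ1. That Mt1 rise was lost on equal library totals (adjusted p = 0.232) and by limma (adjusted p = 0.124). In cells given (+)-JQ1, LPS also raised Mtf1 (log2 fold change 0.44), Slc30a1 (0.33) and Fth1 (0.45), all called by DESeq2. On equal library totals these calls were lost (adjusted p = 0.474, 0.726 and 0.482 in that order). By limma they were lost too (adjusted p = 0.0773, 0.763 and 0.301). The Lcn2 folds start from only 54, 7 and 18 expected counts with IL-10 and 5, 3 and 7 with (+)-JQ1. The scale matters for all of these folds. From the DESeq2 size factors to equal library totals, the median log2 fold change of expressed genes moved from −0.05 to −0.88 in cells given IL-10. In cells given (+)-JQ1 it moved from −0.07 to −0.45.

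A wider list of 76 genes of zinc, iron, haem and copper handling, of which 73 were in the files, places these changes in context. With LPS, 44 of the 62 that could be tested (71.0%) were called, beside 64.7% of all genes, 21 higher and 23 lower, with a median log2 fold change of 0.17 against −0.07 for all expressed genes. The genes that rose or fell most are named here only from those with a mean of at least 100 normalised counts, and some scarcer genes changed more. Among the former, Cp, which encodes the ferroxidase ceruloplasmin, rose most (log2 fold change 5.00 ± 0.30, adjusted p = 1.08e-60). Slc31a2, a copper transporter gene (3.22), and Slc30a4, a zinc transporter gene (2.39), rose next. Steap3, the endosomal iron reductase gene (−1.99), Hfe, a partner of the transferrin receptor (−1.52), and Ncoa4, the receptor for ferritin turnover (−1.47), fell most. Of the 5 zinc exporter genes tested other than Slc30a1, 4 were higher and 1 lower, and of 12 haem genes 2 were higher and 7 lower. On equal library totals 49 of the list were called, 11 higher and 38 lower, where 15.2% of all genes were higher and 60.7% lower, and the exporters split into 2 higher and 2 lower.

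With (+)-JQ1 alone, 35 of 58 of these genes (60.3%) were called, beside 46.0% of all genes, 16 higher and 19 lower (median log2 fold change 0.03 against 0.00). Of 12 zinc importer genes, 8 were lower and none higher, on equal library totals too, where 23.9% of all genes were lower on the first scale and 32.7% on the second. Among genes with a mean of at least 100 counts over all 18 libraries, Ftl1 (1.54), the copper exporter gene Atp7a (1.43) and the haem oxygenase gene Hmox1 (1.15) rose most. Hfe (−1.78), the zinc importer gene Slc39a10 (−1.06) and Cp (−0.94) fell most, though by limma the fall of Cp was not called (adjusted p = 0.0812). Cp reached that mean through the LPS and LPS + IL-10 groups. In unstimulated cells it lay 5.00 log2 units lower than with LPS, so its fall here is at a low level. Under LPS, (+)-JQ1 called 40 of 61 (65.6%, beside 57.6% of all genes), 17 higher and 23 lower (median −0.08 against −0.10), and on equal library totals 26 higher and 11 lower. Ftl1 (1.70), Glrx5, which serves iron-sulphur cluster assembly (1.18), and the haem-binding repressor gene Bach1 (0.77) rose most. Cp fell from 1575, 1343 and 1886 counts to 106, 104 and 102 (log2 fold change −3.94 ± 0.29, adjusted p = 1.84e-40), followed by the zinc transporter gene Slc39a13 (−1.45) and Hfe (−1.30). Slc39a8, which encodes ZIP8, the closest relative of ZIP14, was chosen after its values were seen. It was lowered by (+)-JQ1 from 189, 174 and 238 counts with LPS to 27.6, 33.7 and 28.3 (log2 fold change −2.74 ± 0.21, adjusted p = 4.42e-37). Without LPS, (+)-JQ1 lowered Slc39a8 by −1.34 (adjusted p = 5.89e-10), further than it lowered Slc39a10.

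IL-10 alone called 3 of 57 listed genes (5.26%, beside 2.75% of all genes), all higher, Hfe (0.68), the copper importer gene Slc31a1 (0.38) and Bach1 (0.24). On equal library totals Slc31a1 (adjusted p = 0.0886) and Bach1 (adjusted p = 0.0512) were not called. Under LPS it called 11 of 53 (20.8%, beside 16.9% of all genes), 10 higher and 1 lower (median 0.00 against −0.02), and on equal library totals 14, all higher. Cp rose again, from the LPS counts above to 4973, 5453 and 7615 (log2 fold change 1.91 ± 0.28, adjusted p = 3.28e-10). Fbxl5, an iron-sensing ubiquitin ligase gene (1.14), and Hfe (0.72) also rose. The 1 listed gene that fell was Slc39a8 (−0.51 ± 0.16, adjusted p = 0.00982), opposite to Slc39a14, but its fall was not called on equal library totals (−0.42, adjusted p = 0.0584) or by limma (−0.33, adjusted p = 0.122). Cp thus had the same order of groups under LPS as Lcn2 and Slc39a14.

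**Figure D4:**
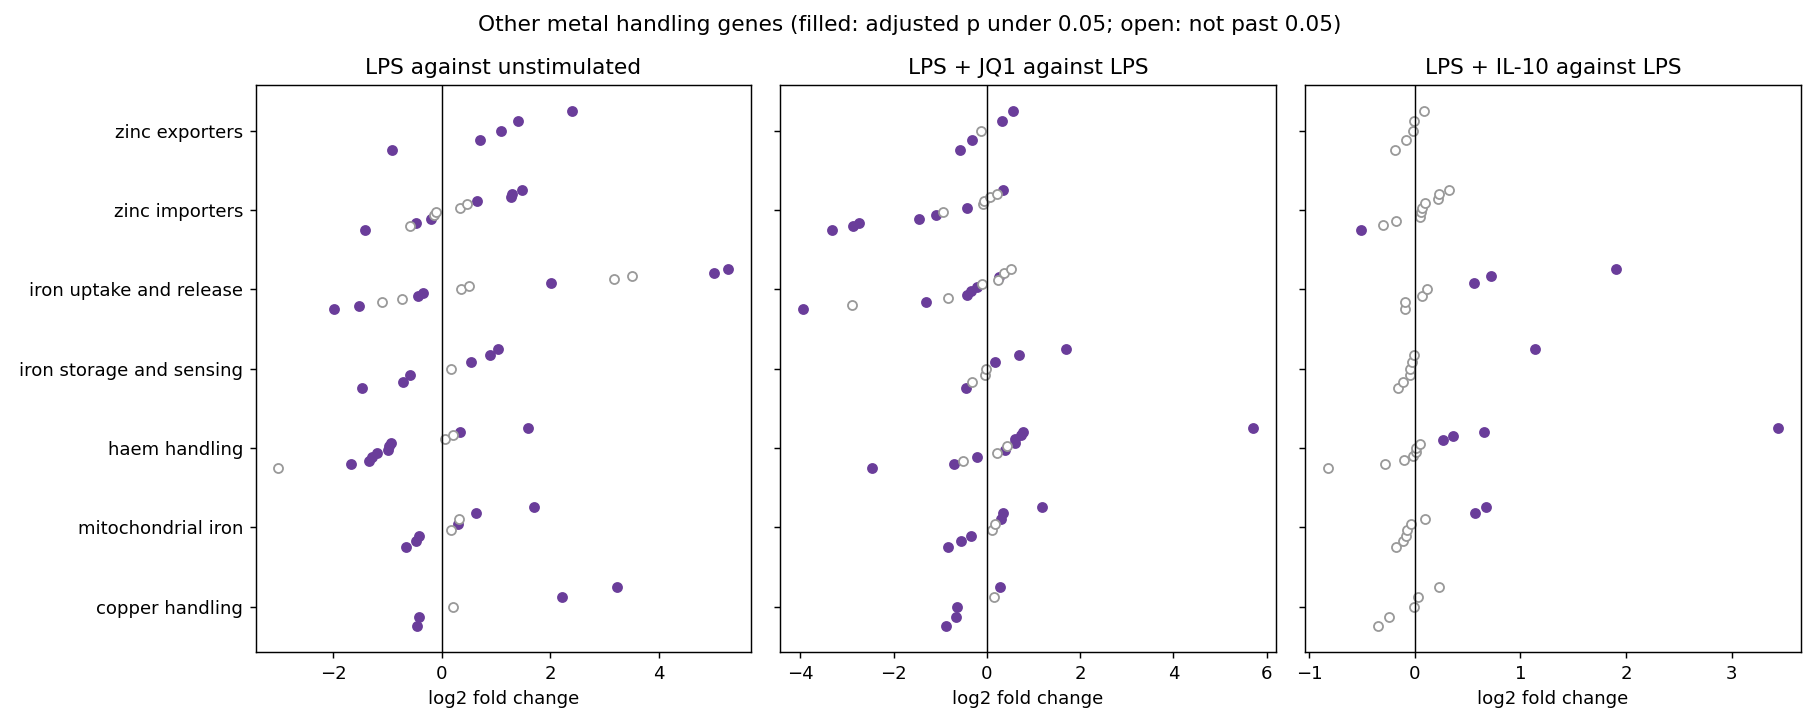
Log2 fold changes of the other metal handling genes by class for LPS against unstimulated cells, and for (+)-JQ1 and IL-10 under LPS (1 point per gene with an adjusted p, filled where it is under 0.05). For LPS the filled points lie on both sides of 0 (21 higher, 23 lower), and for IL-10 under LPS 10 of the 11 filled points lie to the right.

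Across the 18 libraries, the genes most like each of 4 members were ranked by Pearson correlation of variance-stabilised counts among genes with a mean of at least 100. The libraries of a group share their treatment, so these values describe the pattern over 6 groups. Slc40a1 was closest to Dbp (r = 0.996), Lpin1 (0.996), Cerk (0.995), Mef2c (0.995) and Zfp36l2 (0.994). Mt1 was closest to Acat2 (0.985), Slc9a3r1 (0.979), Ctnnb1 (0.950), Tsc22d2 (0.915) and Klhl18 (0.914). Lcn2 was closest to Chil1 (0.976), Sema4c (0.971), Pfkfb3 (0.970), Creb3l1 (0.970) and Samsn1 (0.968), and Mt2 to Ints9 (0.951), Tm9sf4 (0.950), 8030462N17Rik (0.950), Sec61a1 (0.948) and Slc25a28 (0.948). None of the 4 appears in the list of another. Among the 10 genes themselves, Slc39a14 and Lcn2 were the most alike (r = 0.945), and Mt1 and Mt2 reached r = 0.775.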

How the data were processed

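RNA-seq libraries of 18 macrophage cultures were used. The authors made stranded libraries after ribosomal RNA removal, sequenced paired ends, mapped the reads to mm9 (STAR) and ran RSEM 1.2.31. Per the file headers, the deposited expected counts are estimates per gene that divide a read matching several genes among them, and the deposited TPM values put the same estimates per transcript length on a common total. Per the methods RSEM ran at its defaults, which ignore strand, so that reads of overlapping antisense genes cannot be told apart. For 8 of the 10 genes the expected counts were whole in every library.

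Groups and replicate numbers came from the sample titles. Expected counts were rounded and fitted with DESeq2 1.42.0 (R 4.3.3) over all 18 libraries and all genes, with group as the only term. Wald tests, which the study also used, gave each comparison, and differences of effects were contrasts of the same fit. P-values were adjusted by Benjamini-Hochberg over the genes left by independent filtering, and 95% intervals are from the standard error. TPM gave levels and within-library ratios, compared by exact two-sided permutation. Library totals ran from 6781952 to 28289498 expected counts, and floors of 3 counts cover counting error only. The replicate numbers were taken to pair the libraries from the series text and the labels. The correlation of the deviations of same-numbered libraries, with the 3 replicates pooled, ran from −0.196 to 0.719 over 8 comparisons. It was highest for LPS + IL-10 against LPS. It was negative for LPS + (+)-JQ1 against LPS + IL-10 (−0.196) and against LPS (−0.174), and for LPS + IL-10 against IL-10 (−0.082). In those comparisons these values do not show the pairing that the replicate block assumes. No 2 replicate libraries were alike within sampling noise (chi-square per degree of freedom 4.14 to 30.5 in 18 pairs, and 26.1 or more in the 4 pairs with replicate 3 of LPS or of LPS + IL-10). A gene was taken as expressed where 3 or more libraries held 10 or more of its counts.

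The members and gene lists were chosen with earlier results of these data known. Genes named outside the 10 were the 3 largest rises and falls per comparison in the metal handling list, with an adjusted p under 0.05 and a mean of 100 normalised counts or more, and the 5 genes most like each of 4 members. Slc39a8, with a mean of 99.9 normalised counts, was named in addition after its values were seen. Alternatives were a replicate block, lane as a covariate, TMM factors, total-count scaling, a filter of 10 counts in 3 libraries, leaving out each replicate, fitting only the groups compared, edgeR 4.0.16 quasi-likelihood, and limma 3.58.1 on log2(TPM + 1). Leaving out replicate 3 of LPS and of LPS + IL-10 together was chosen after seeing the data. Of the 76 listed genes, Flvcr1, Flvcr2 and Ftl2 are not analysed here. Promoters are from RefSeq (GRCm38.p6), and other positions are from the mm9 genome and its annotation.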

Additional observations from a re-analysis of the deposited data

Results flagged for a closer look

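Each result here is a difference between the effect of a pretreatment in cells with LPS and in cells without it, tested as an interaction in the DESeq2 fit of all 18 libraries, in log2 units with 3 libraries per group.

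For IL-10, the effect was higher with LPS for Mt1 by 1.38 (adjusted p = 9.72e-08), for Mt2 by 1.79 (adjusted p = 4.62e-07) and for Slc39a14 by 0.95 (adjusted p = 3.92e-06). It was also higher for Fth1, by 0.55 (adjusted p = 0.00230), going from −0.22 without LPS to 0.33 with it, and for Lcn2 by 3.39 (adjusted p = 6.96e-07). The Fth1 difference was not called without replicate 1 (adjusted p = 0.124) or by limma (adjusted p = 0.0952). All 5 of these genes were higher with IL-10 in LPS-treated cells, and of the 5 only Slc39a14 was called higher with IL-10 alone.

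For (+)-JQ1, the effect on Mt2 was smaller with LPS by −1.70 (adjusted p = 1.39e-07), and the effects on Slc39a14 and Slc30a1 were lower with LPS by −1.22 (adjusted p = 4.09e-10) and −0.91 (adjusted p = 1.58e-10). By limma the Slc30a1 difference was not called (adjusted p = 0.0824). The effect on Slc40a1 was higher with LPS by 0.52 (adjusted p = 0.0422, 0.0806 with the replicate block and 0.0967 without replicate 3 of LPS and of LPS + IL-10).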

How the results depend on the processing

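Over 78 fold changes reported for the 10 genes, 936 alternative values were computed, of which 873 kept their direction and their side of the threshold, 35 kept the direction but lost the call, 12 gained a call and 16 changed sign. Of the sign changes, 13 came from total-count scaling or from limma on log2(TPM + 1). With LPS alone the log2 fold changes were, on total counts and by limma, −0.72 and −0.59 for Mt1, −0.61 and −0.39 for Mtf1, −0.70 and −0.52 for Tfrc, and −0.44 and −0.30 for Fth1. For LPS + IL-10 against IL-10, Mtf1 gave −0.49 and −0.32, and the difference of (+)-JQ1 effects on Slc11a1 gave 0.34 and 0.31. On total counts the rise of Slc30a1 with LPS in (+)-JQ1-treated cells became −0.0455. Leaving out each replicate in turn, the (+)-JQ1 effect on Fth1 under LPS ran from −0.0307 (without replicate 3) to 0.122 (without replicate 2). Without replicate 3 of LPS and of LPS + IL-10, an alternative chosen after seeing the data, it was −0.0577, the LPS effect on Tfrc was −0.121, and the count for IL-10 alone went from 1 to 2. The cause was not tested. The number of the 10 genes called for IL-10 alone went from 1 to 3 when only the groups compared were fitted and to 0 by limma, where 1 gene had an unadjusted p under 0.05. For LPS in (+)-JQ1-treated cells it went from 9 to 5 on total counts and to 5 by limma, and for the difference of (+)-JQ1 effects from 4 to 8 and to 7. With the replicate block 8 genes were called for LPS, 6 for (+)-JQ1, 8 for (+)-JQ1 under LPS and 5 for IL-10 under LPS. Among the 10 genes in the 10 comparisons the block changed no call other than those of Slc40a1 (adjusted p = 0.0806) and Slc11a1 (adjusted p = 0.0487) for the differences of the (+)-JQ1 and IL-10 effects. Fth1 under LPS with (+)-JQ1 against IL-10 (log2 fold change −0.29, adjusted p = 0.00708) lost its call under 7 alternatives. Over all genes, IL-10 alone called 356, against 230 by edgeR, 208 by limma and 129 to 197 without 1 replicate. IL-10 under LPS called 1963, against 1092 when only those groups were fitted and 878 to 1244 without 1 replicate. The difference of IL-10 effects called 802, against 295 to 466 without 1 replicate. Without replicate 1, (+)-JQ1 alone called 4055 in place of 6254, and the difference of (+)-JQ1 effects 3462 in place of 5263. The group with the highest level was the same in TPM and normalised counts for 9 of the 10 genes, with Slc30a1 the exception. Depth limits Lcn2 most, which had as few as 3 expected counts in a (+)-JQ1 library.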
